A study of Mus musculus with 14 samples.

Results

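The cell cycle brake of Ocy454 osteocyte-like cells was examined through 10 genes chosen by name, namely the CDK inhibitors Cdkn1a, Cdkn1b, Cdkn1c, Cdkn2a and Cdkn2b, the D cyclins Ccnd1, Ccnd2 and Ccnd3, and the pair Trp53 and Mdm2. All 10 were found among the 39179 genes of the differentiation table and all 10 among the 35886 genes summed from transcripts in the sorted libraries. RNA from 2 replicates each was sequenced after 1, 7, 10 and 14 days of differentiation at 37 °C, and from 3 replicates each of CD61 high and CD61 low cells after 17 days. The day of the sort is that of the labels, and the study's text is not uniform on it. Cells were sorted by antibody label for CD61, the integrin beta-3 subunit encoded by Itgb3, and the brightest 10% and the dimmest 10% of the live cells were kept. Ocy454 is a mouse line immortalized by a thermosensitive large T antigen, which is active at the growth temperature of 33 °C. All 14 libraries came from this unmodified line and from cultures moved to 37 °C at confluence, so no library represents cells kept at 33 °C. RNA was isolated with different kits in the time course and in the sort. Replicates came from 1 line, described as biological duplicates and as 3 independent groups of cells, and the p-values below measure the spread between these cultures only. By the study's description both gates were taken from these 3 groups, so CD61 high and CD61 low libraries share cultures. Which libraries belong together is not given in the labels, and the main tests of the sort were unpaired.

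The genes form 2 linked circuits. D cyclins bind and switch on the kinases CDK4 and CDK6, which phosphorylate the retinoblastoma protein and free E2F transcription factors to drive entry into S phase. The INK4 inhibitors p16Ink4a (from Cdkn2a) and p15Ink4b (from Cdkn2b) bind CDK4 and CDK6 and displace the D cyclins, whereas the CIP/KIP inhibitors p21 (Cdkn1a), p27 (Cdkn1b) and p57 (Cdkn1c) bind cyclin-CDK complexes more widely. The transcription factor p53 (Trp53) switches on Cdkn1a and also Mdm2, whose product marks p53 for destruction. p19Arf, the other product of Cdkn2a, holds Mdm2 away from p53. Large T antigen binds both p53 and the retinoblastoma family, and osteocytes in bone are post-mitotic cells.

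Cdkn2a is a single locus with 2 unrelated proteins, so the gene-level value has to be read together with its transcripts. In GRCm39 it lies on chromosome 4 from 89192708 to 89212890 on the minus strand and overlaps no other annotated gene, and Cdkn2b lies beside it from 89223204 to 89229276. Transcript Cdkn2a-201 starts with exon 1α and encodes p16Ink4a, and its coding part of exon 1 (chr4:89200223-89200348) is shown with the start codon in capitals:

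Cdkn2a-201 exon 1α: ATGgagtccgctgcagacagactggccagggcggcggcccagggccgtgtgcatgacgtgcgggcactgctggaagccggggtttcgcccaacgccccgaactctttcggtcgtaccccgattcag

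Transcript Cdkn2a-202 starts upstream with exon 1β and encodes p19Arf, and its coding part of exon 1 (chr4:89212571-89212760) is shown in the same way:

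Cdkn2a-202 exon 1β: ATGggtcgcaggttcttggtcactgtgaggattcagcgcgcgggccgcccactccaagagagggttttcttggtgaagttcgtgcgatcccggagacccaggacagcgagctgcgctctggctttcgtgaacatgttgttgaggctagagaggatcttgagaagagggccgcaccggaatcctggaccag

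Both first exons splice to the same exon 2. The first 60 bases of that exon (chr4:89195163-89195222, minus strand) are shown once for each transcript, with the first whole codon of exon 2 in capitals:

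Cdkn2a-201 exon 2: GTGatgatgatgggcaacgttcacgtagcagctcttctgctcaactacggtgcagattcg
Cdkn2a-202 exon 2: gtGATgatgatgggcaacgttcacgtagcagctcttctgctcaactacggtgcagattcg

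The capitals are offset, because the coding part of exon 1 is 126 bases long in Cdkn2a-201 and 190 bases long in Cdkn2a-202. The same bases are therefore read in different frames. Most of the transcript is shared, and reads in the shared stretches have to be divided between the transcripts by estimation.

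Start regions of Cdkn1a and Cdkn2b are shown because both genes moved by over 2-fold from day 1 to day 14 and a searched motif lies close before an annotated start. Ccnd2 also moved by over 2-fold, and its windows held no searched motif. For Cdkn1a, the annotated start of transcript Cdkn1a-202 (chr17:29309703-29310002, plus strand, GRCm39, the 250 bases before the start and the 50 bases from it) holds a 20-base p53 response element, in capitals:

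Cdkn1a-202 start: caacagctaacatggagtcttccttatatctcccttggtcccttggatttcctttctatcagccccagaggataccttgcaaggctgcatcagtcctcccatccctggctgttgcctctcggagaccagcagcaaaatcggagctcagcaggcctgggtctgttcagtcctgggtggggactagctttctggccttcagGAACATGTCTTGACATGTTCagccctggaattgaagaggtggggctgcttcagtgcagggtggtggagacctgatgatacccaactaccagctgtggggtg

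The p53 element was searched on both strands as 2 consecutive decamer half-sites with both half-site cores intact and at most 1 mismatch elsewhere, an allowance chosen after the Cdkn1a window had been seen. It was found in 18 of the 67387 distinct start windows of protein-coding transcripts (0.0267%), and in 2 of the 51 windows of the 10 genes, both of them Cdkn1a and both on this element. With no mismatch allowed, the element was found in 5 windows (0.00742%) and in none of the 10 genes. The element lies at chr17:29309902-29309921. Cdkn1a-202 had 0 of the reads assigned to Cdkn1a in the 6 sorted libraries, and the main transcript Cdkn1a-201 starts 2817 bases downstream of the element. For Cdkn2b, the window around its single start (chr4:89229227-89229526, minus strand) holds the cAMP response element TGACGTCA, in capitals:

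Cdkn2b-201 start: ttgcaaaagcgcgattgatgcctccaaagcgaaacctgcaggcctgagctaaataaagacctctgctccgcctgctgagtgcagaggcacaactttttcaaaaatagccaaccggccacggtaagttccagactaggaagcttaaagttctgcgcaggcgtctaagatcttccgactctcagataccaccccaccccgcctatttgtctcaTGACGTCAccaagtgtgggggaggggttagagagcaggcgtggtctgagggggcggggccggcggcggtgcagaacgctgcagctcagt

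TGACGTCA was present in 1327 windows (1.97%), and Cdkn2b was the only one of the 10 genes with it. The E2F motif TTTGGCGC was present in 0.602% of windows, among them 2 windows of Ccnd3 including that of its main transcript Ccnd3-205, and the E2F motif TTTCGCGC in 0.309% and in no window of the 10 genes. The AP-1 motif TGAGTCA was present in 4.60% of windows, including 2 of minor Cdkn1a starts and 1 of Mdm2. All motifs were searched on both strands, and no motif of this set contains another. These matches are letters in a window and were not tested for binding.

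The differentiation libraries held between 27518605 and 34311238 reads and the sorted libraries between 18815602 and 19220064 reads assigned to genes. Of 12 osteoblast and osteocyte markers 10 were tested, and at day 14 versus day 1 8 were higher and 2 were lower (limma, adjusted p below 0.01), beside 32.6% and 36.0% of all genes. The 2 that were lower were the collagen gene Col1a1 (Log2FC -0.47 ± 0.09) and Pdpn, a marker of young osteocytes (Log2FC -0.53 ± 0.07), and the osteocyte gene Dmp1 went from 0.915 and 1.00 CPM (read counts scaled to the same library total) to 52.1 and 57.6 CPM. Fgf23 was at 0 in all 8 differentiation libraries, and Sost and Mepe were at 0 on day 1. Summed macrophage markers stayed between 4.77 and 11.9 CPM in the time course. In the sort this sum was 17.1 to 22.7 CPM in CD61 low and 12.5 to 13.2 CPM in CD61 high cells, with 2 of 7 markers (Cd68 and Cd14) above 1 CPM and Adgre1 at 0. The part of these transcripts in the results below was not tested. Endothelial and adipocyte markers summed to at most 0.861 CPM in any library. Itgb3, whose surface protein was the label of the sort, rose 19.7-fold in CD61 high cells (edgeR, Log2FC 4.30 ± 0.13 (SE), adjusted p = 3.3e-08).

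Between day 1 and day 7 Cdkn1a rose 14.1-fold while 7 other members fell (Cdkn1b, Cdkn2a, Cdkn2b, Ccnd1, Ccnd2, Ccnd3 and Trp53). Mdm2 did not pass the test, and Cdkn1c, with no reads, could not be tested. A gene is said here to have risen or fallen when the adjusted p of limma was below 0.01. By that rule 24.5% of the 12725 genes tested were higher and 32.0% were lower on day 7. Neighbouring comparisons of days share libraries and are not independent of each other.

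**Figure D1:**
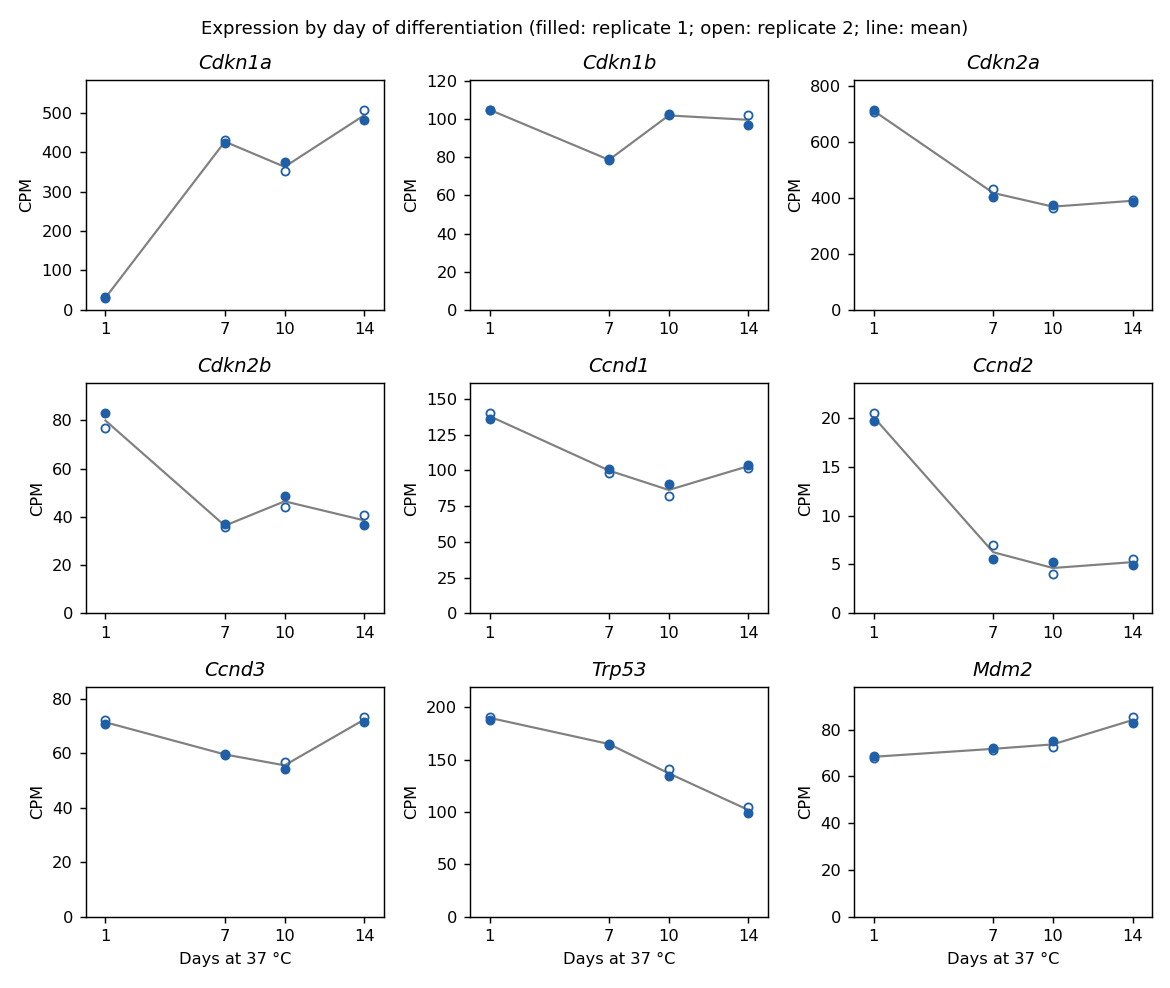
CPM of 9 members (y axes, linear from 0) against days at 37 °C (x axes); filled and open circles are replicates 1 and 2 and the line joins the means. Cdkn1a climbs from 31.3 and 29.3 CPM on day 1 to 423 and 431 CPM on day 7, Trp53 falls at every step, and the 2 replicates of a day lie close together for every gene.

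Cdkn1a, the p21 inhibitor, was at 31.3 and 29.3 CPM on day 1, 423 and 431 CPM on day 7, 375 and 352 CPM on day 10, and 481 and 508 CPM on day 14. Day 1 was far below all later days and no day overlapped another. The Log2FC on log2(CPM + 1) was 3.78 ± 0.04 (SE, n = 2 a day, adjusted p = 4.5e-30) from day 1 to day 7. It then fell by 0.23 on the log2 scale to day 10 (adjusted p = 2.7e-05) and rose by 0.44 to day 14 (adjusted p = 8.6e-10). The gene lies on chromosome 17 from 29309936 to 29319701 (GRCm39, plus strand) and overlaps Dino and Gm64878 on the opposite strand, and whether reads were counted by strand is not given in the sources used here. All members except Cdkn2a overlap another annotated gene in part, and reads from stretches shared with a gene on the opposite strand cannot be told apart without strand. Ccnd3 and Cdkn1c also overlap genes on their own strand, where strand would not separate the reads.

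Cdkn1b, which encodes p27 (chromosome 6, 134897364 to 134902476, plus strand), moved little and not in step with Cdkn1a. It was at 105 and 105 CPM on day 1, 79.0 and 78.4 CPM on day 7, 103 and 102 CPM on day 10, and 97.1 and 102 CPM on day 14. It was lower on day 7 than on every other day, with a Log2FC of -0.41 ± 0.04 from day 1 (adjusted p = 2.5e-09) and of 0.37 ± 0.04 from day 7 to day 10 (adjusted p = 3.3e-08). Day 14 versus day 1 did not pass the test (Log2FC -0.08, 95% interval -0.16 to 0.01).

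Cdkn1c, the imprinted gene for p57 (chromosome 7, 143012069 to 143014806, minus strand), had no reads. It was at 0 in each of the 8 differentiation libraries, which together held 250823570 reads and allow a level of up to 0.012 CPM (3 reads), and at 0 in each of the 6 sorted libraries, which allow up to 0.0263 CPM. These limits cover counting error only.

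Cdkn2a had the highest level of the 10 genes per length on every day. Its CPM was 714 and 706 on day 1, 403 and 430 on day 7, 373 and 363 on day 10, and 384 and 393 on day 14. Day 1 stood above the later days, with a Log2FC of -0.77 ± 0.04 to day 7 (adjusted p = 7.1e-16). A smaller decline followed to day 10 (Log2FC -0.18, adjusted p = 2.1e-04), and day 14 versus day 10 did not pass (Log2FC 0.08, adjusted p = 0.066). The differentiation table gives genes and not transcripts, so p16Ink4a and p19Arf cannot be told apart by day.

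Cdkn2b, which encodes p15Ink4b and lies next to Cdkn2a, also fell in the first week. It was at 82.9 and 76.9 CPM on day 1, 37.0 and 35.7 CPM on day 7, 48.6 and 44.2 CPM on day 10, and 36.4 and 40.7 CPM on day 14. The Log2FC to day 7 was -1.11 ± 0.06 (adjusted p = 8.2e-15). Unlike Cdkn2a it was higher on day 10 than on day 7 (Log2FC 0.34, adjusted p = 2.7e-05) and lower again on day 14 (Log2FC -0.26, adjusted p = 5.1e-04). That last step did not pass when replicate 1 of day 10 (Log2FC -0.20) or replicate 1 of day 14 (Log2FC -0.18) was left out.

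The 3 D cyclins differed in how much they fell and in whether they came back. Ccnd2 (chromosome 6, 127102125 to 127129156, minus strand) was the lowest of them per length and fell furthest, from 19.7 and 20.5 CPM on day 1 to 5.55 and 6.97 CPM on day 7, 5.22 and 4.06 CPM on day 10, and 4.95 and 5.52 CPM on day 14. Its Log2FC to day 7 was -1.55 ± 0.12 (adjusted p = 6.9e-12), and the libraries of days 10 and 14 overlapped. The step from day 7 to day 10 was small (Log2FC -0.36, adjusted p = 0.0086) and did not pass without replicate 2 of day 7 or of day 10, where the Log2FC was -0.22. Ccnd1 (chromosome 7, 144483668 to 144493662, minus strand) was at 136 and 140 CPM on day 1, 101 and 98.5 CPM on day 7, 90.6 and 82.1 CPM on day 10, and 104 and 102 CPM on day 14. Ccnd1 thus reached its lowest level on day 10 and rose from there to day 14 (Log2FC 0.26 ± 0.05, adjusted p = 2.3e-05), but stayed under its day 1 level (Log2FC -0.42 ± 0.05, adjusted p = 6.1e-09). Ccnd3 (chromosome 17, 47815767 to 47910624, plus strand) was at 70.6 and 72.0 CPM on day 1, 59.4 and 59.6 CPM on day 7, 54.3 and 56.8 CPM on day 10, and 71.3 and 73.3 CPM on day 14. The libraries of Ccnd3 on day 14 overlapped those of day 1 (Log2FC 0.02, 95% interval -0.07 to 0.11), after a rise of 0.37 ± 0.05 from day 10 (adjusted p = 1.4e-07).

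Trp53 was the one member that fell at each step. The gene lies on chromosome 11 from 69469669 to 69482701 (plus strand). It was at 188 and 191 CPM on day 1, 165 and 164 CPM on day 7, 134 and 141 CPM on day 10, and 99.1 and 105 CPM on day 14, with no overlap between days. The Log2FC was -0.20 (adjusted p = 1.0e-04), -0.26 (adjusted p = 4.4e-06) and -0.42 (adjusted p = 1.4e-09) for the 3 steps. Mdm2 (chromosome 10, 117524780 to 117546730, minus strand) went the other way by a smaller amount, from 68.9 and 68.0 CPM on day 1 through 72.3 and 71.4 CPM on day 7 and 75.1 and 72.4 CPM on day 10 to 82.7 and 85.5 CPM on day 14. Only its last step passed (Log2FC 0.19, adjusted p = 6.9e-04), and that step gave 0.16 and did not pass when replicate 2 of day 10 was left out. Trp53 shares part of its locus with Wrap53 on the opposite strand, which was at 23.9 and 22.6 CPM on day 1 and at 18.7 and 19.4 CPM on day 14.

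From day 7 to day 10, 2 members rose and 5 fell, against 29.8% and 18.9% of all genes. Without replicate 2 of day 7 or without replicate 2 of day 10, 3 members fell. From day 10 to day 14, 4 rose and 2 fell, against 22.9% and 30.0%. Without replicate 1 of day 10 or without replicate 1 of day 14, 1 member fell, Trp53. Between these neighbouring days no member moved by over 1 on the log2 scale after day 7. Over the whole series, day 14 versus day 1, 2 members rose (Cdkn1a and Mdm2) and 5 fell (Cdkn2a, Cdkn2b, Ccnd1, Ccnd2 and Trp53), against 32.6% and 36.0% of all genes. By the stricter rule that also asks for a Log2FC above 1 or below -1, 1 member was higher (Cdkn1a, Log2FC 3.99 ± 0.04, 16.3-fold, adjusted p = 1.2e-30) and 2 were lower (Cdkn2b, Log2FC -1.04 ± 0.06, adjusted p = 2.5e-14, and Ccnd2, Log2FC -1.76 ± 0.12, adjusted p = 3.1e-13), against 7.51% and 5.90% of genes. Trp53 (Log2FC -0.89 ± 0.04, adjusted p = 1.2e-16) and Cdkn2a (Log2FC -0.87 ± 0.04, adjusted p = 3.2e-17) lay just short of that line. The median Log2FC of the 9 members tested was -0.42, beside -0.03 over all genes. In these bulk libraries fewer cells with a transcript and less of it per cell cannot be told apart.

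When TMM (trimmed mean of M values) scaling was applied to the time course, the split of calls over all genes moved from 3798 higher and 2399 lower to 2943 higher and 3158 lower for day 10 versus day 7. For day 7 versus day 1 it moved from 3115 higher and 4076 lower to 3582 and 3575. For day 14 versus day 10 it moved from 2909 higher and 3812 lower to 3508 and 3114. The members called kept their direction under that scaling, and from day 7 to day 10 Ccnd3 then also fell (Log2FC -0.17 in place of -0.10). The same scaling made the step of Cdkn2a from day 10 to day 14 pass, at a Log2FC of 0.14.

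Levels of different genes were compared per length, as CPM per kilobase of the gene length in the table. On day 1 Cdkn2a led at 507 CPM per kb, ahead of Trp53 at 68.1, Cdkn2b at 57.5, Ccnd1 at 36.0, Cdkn1b at 23.1 and Cdkn1a at 13.6 CPM per kb. By day 7 Cdkn1a had moved from the 6th to the 2nd place at 193 CPM per kb, behind Cdkn2a at 297 CPM per kb, and it held that place on days 10 and 14. On day 14 the levels were 278 CPM per kb for Cdkn2a, 223 for Cdkn1a, 36.7 for Trp53, 27.7 for Cdkn2b, 26.9 for Ccnd1, 21.9 for Cdkn1b, 14.7 for Mdm2, 13.0 for Ccnd3 and 0.920 for Ccnd2. Cdkn2b and Ccnd1 overlapped on days 7 and 14, and Ccnd1 and Cdkn1b on day 10, and all other neighbours in the order were apart in both libraries.

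For each member the other genes most like it over the 8 libraries were found by Pearson's r of log2(CPM + 1), among genes that averaged 5 CPM or more. The r values ranged from 0.987 to 0.999, and with 4 days in the series they describe the shape of a 4-point course. The genes closest to Cdkn1a were Ihh, which encodes Indian hedgehog (means of 0.273, 19.1, 16.7 and 21.7 CPM on days 1, 7, 10 and 14), and Tpcn1 (93.5, 237, 223 and 259 CPM), both at 0.999. Those closest to Trp53 were Smpdl3b at 0.998 (80.4, 59.2, 44.6 and 24.1 CPM) and Fdft1, the squalene synthase gene, at 0.997 (99.0, 79.4, 55.8 and 34.5 CPM). Cdkn2a was nearest to Tnk2 and P4ha3, Cdkn2b to Fnbp1 and Mknk2, and Cdkn1b to Ets1 and 2610001J05Rik. Among the D cyclins, Ccnd1 was nearest to Agpat9 and Wasf1, Ccnd2 to Psme1 and March5, and Ccnd3 to Cmc2 and Fam57a, and Mdm2 was nearest to Anxa4, all named as in the table.

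The sort separates cells of the same age by the CD61 on their surface, which the study used as a marker of osteocyte maturation, and asks whether the members differ within a culture of 17 days. Of the 9 members tested with edgeR, 4 were higher in CD61 high cells (Cdkn1a, Cdkn1b, Ccnd1 and Ccnd3) and 3 were lower (Cdkn2b, Ccnd2 and Trp53). Over the 12077 genes tested, 19.4% were higher and 16.0% were lower. By the 2-fold rule 1 member was higher (Ccnd1) and 1 was lower (Ccnd2), against 4.84% and 4.37% of genes. The median Log2FC was -0.29 for the 9 members and 0.00 for all genes. Of the 10 osteoblast and osteocyte markers tested, 9 were higher in CD61 high cells and Pdpn was lower (Log2FC -0.48 ± 0.12), and Fgf23 and Mepe were at 0 in CD61 low cells. Their sum was 17690 to 21624 TMM-scaled CPM in CD61 low and 50273 to 52985 in CD61 high cells, of which Col1a1 alone made up 17664 and 44785 on average. In the time course the same sum was 35639 to 35693 CPM on day 1 and 29741 to 34918 CPM on day 14. Their part in the members' differences was not tested.

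**Figure D2:**
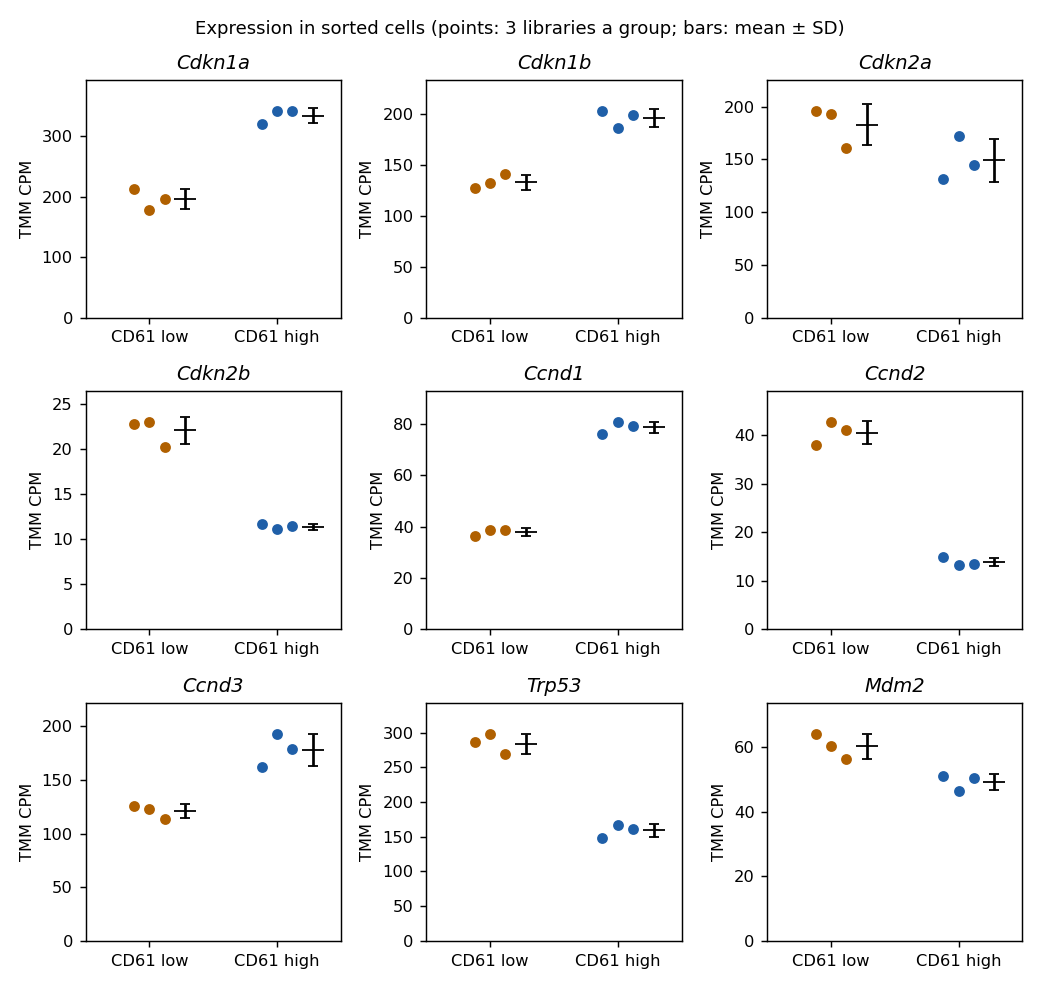
TMM-scaled CPM (y axes, linear from 0) in CD61 low and CD61 high cells for 9 members; points are the 3 libraries of each group and the bar to their right is the mean ± SD. The groups overlap for Cdkn2a, and Ccnd1 is higher and Ccnd2 lower in CD61 high cells.

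Cdkn1a was at 212, 178 and 197 TMM-scaled CPM in CD61 low and at 320, 341 and 342 in CD61 high cells. The Log2FC was 0.77 ± 0.08 (SE, n = 3 a group, adjusted p = 2.5e-05), a 1.71-fold difference. Cdkn1b was at 127, 132 and 141 in CD61 low and 203, 186 and 199 in CD61 high (Log2FC 0.56 ± 0.07, adjusted p = 1.3e-04). On levels corrected for length and without TMM scaling (TPM), the groups of Cdkn1a were apart as well. Those of Cdkn1b overlapped on that scale, at 72.9 to 85 in CD61 low and 84.8 to 104 in CD61 high cells.

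Cdkn2b was at 22.8, 23.0 and 20.3 in CD61 low and at 11.7, 11.1 and 11.5 in CD61 high cells (Log2FC -0.95 ± 0.10, adjusted p = 3.7e-05). The sum over Cdkn2a was at 196, 193 and 161 in CD61 low and at 131, 172 and 145 in CD61 high cells. These ranges overlapped and the difference did not pass (Log2FC -0.29 ± 0.11, 95% interval -0.51 to -0.08, adjusted p = 0.046). Without replicate 2 of CD61 high the Log2FC of Cdkn2a was -0.41, and without replicate 3 of CD61 low it was -0.40, and both of these passed.

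The D cyclins split. Ccnd1 was at 36.3, 38.9 and 38.6 in CD61 low and 76.3, 80.7 and 79.1 in CD61 high cells, a 2.07-fold difference (Log2FC 1.05 ± 0.07, adjusted p = 1.6e-06). Ccnd3 was at 126, 123 and 114 in CD61 low and 162, 193 and 179 in CD61 high (Log2FC 0.56 ± 0.08, adjusted p = 2.8e-04). Ccnd2 went the opposite way, from 38.0, 42.6 and 41.1 in CD61 low to 14.8, 13.2 and 13.4 in CD61 high (Log2FC -1.56 ± 0.09, adjusted p = 7.8e-07). Ccnd1 was lower on day 14 than on day 1 and higher in CD61 high than in CD61 low cells, whereas Ccnd2 was lower in both. The comparisons come from separately normalized tables, and the difference between them was not tested.

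Trp53 was at 286, 298 and 269 in CD61 low and 148, 167 and 161 in CD61 high cells (Log2FC -0.84 ± 0.07, adjusted p = 9.8e-06). Mdm2 was at 64.2, 60.6 and 56.4 in CD61 low and 51.0, 46.4 and 50.4 in CD61 high cells. Its groups did not overlap, but the adjusted p was 0.011 (Log2FC -0.29 ± 0.08), just above the threshold. Mdm2 passed in DESeq2 (Log2FC -0.30), when TMM was computed after the filter (Log2FC -0.31) and without replicate 3 of CD61 low (Log2FC -0.36). Mdm2 had been higher on day 14 than on day 1, and here every CD61 high library was below every CD61 low library.

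Scaling matters for the size of these values. The TMM factors lay between 1.096 and 1.128 in CD61 low and between 0.8953 and 0.9092 in CD61 high libraries, and with library size alone the median Log2FC of all genes was -0.293. That scaling gave 1122 genes higher and 4807 lower, in place of 2342 and 1933. Under it all 9 members kept their direction, Cdkn2a (Log2FC -0.60) and Mdm2 (Log2FC -0.60) passed and Ccnd3 (Log2FC 0.26) did not, so that 3 members were higher and 5 lower.

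**Figure D3:**
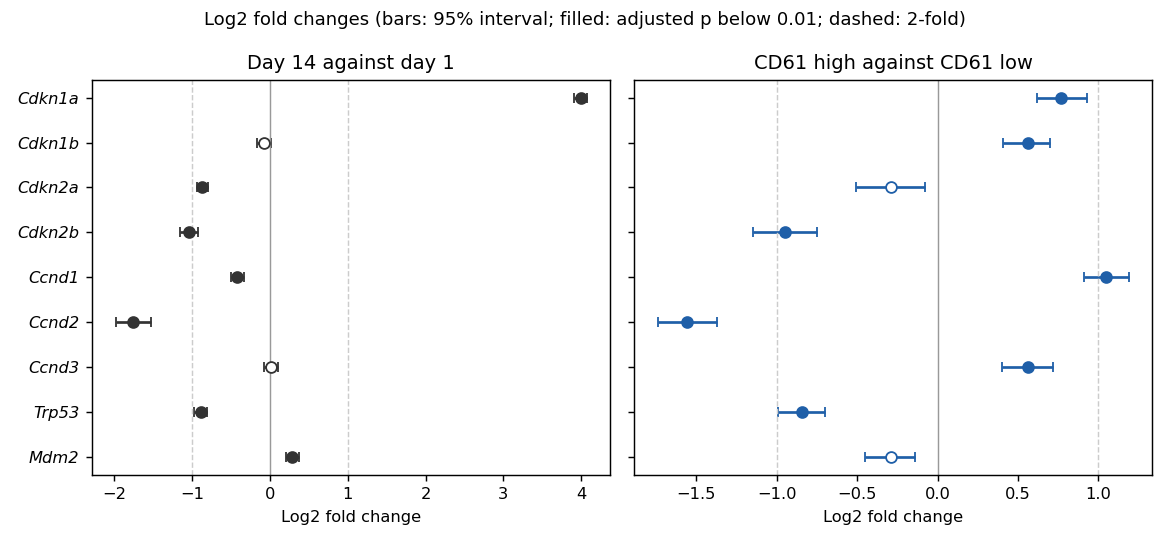
Log2 fold change (x axes) of 9 members for day 14 versus day 1 (left, limma) and CD61 high versus CD61 low (right, edgeR); bars are 95% intervals, filled points have an adjusted p below 0.01 and dashed lines mark 2-fold. Cdkn1a stands at 3.99 on the left and 0.77 on the right, Ccnd2 and Trp53 are below 0 on both sides, and Ccnd1 is at -0.42 on the left and 1.05 on the right.

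The transcripts of Cdkn2a were compared one by one. Cdkn2a-202 (p19Arf) was at 349, 352 and 304 TPM (transcript levels corrected for length and scaled to the same library total) in CD61 low and at 179, 215 and 199 TPM in CD61 high cells, with no overlap. Cdkn2a-201 (p16Ink4a) was at 120, 122 and 103 TPM in CD61 low and at 95.3, 122 and 95 TPM in CD61 high cells, with overlap. The p19Arf transcript was the more abundant one in all 6 libraries. Per TPM of the p16Ink4a transcript there were 2.92 ± 0.0251 TPM of the p19Arf transcript in CD61 low and 1.91 ± 0.166 in CD61 high cells (SD, n = 3). The lowest ratio in CD61 low (2.89) was above the highest in CD61 high (2.09), and an exact two-sided permutation test gave p = 0.1, which is the smallest that 3 libraries against 3 allow. TPM carries no TMM scaling, but a ratio within a library does not need it.

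On estimated counts per transcript, the Log2FC was -0.51 ± 0.13 for Cdkn2a-202 (adjusted p = 0.035) and 0.12 ± 0.16 for Cdkn2a-201 (adjusted p = 0.67), so neither passed in edgeR at transcript level. DESeq2 called Cdkn2a-202 at the same Log2FC of -0.51. Of the 20 member transcripts tested, 3 rose (Cdkn1a-201, Cdkn1b-201 and the coding transcript of Ccnd1) and 4 fell (the single transcript of Cdkn2b, the longer coding transcript of Ccnd2, Trp53-202 and Trp53-203), against 4.19% and 2.67% of the 24853 transcripts tested. With the replicate number as a block, 3 of these 7 passed (those of Ccnd1 and Ccnd2, and Trp53-202), and over all transcripts 569 passed in place of 1705. A test of the share of each transcript within its gene (edgeR's diffSpliceDGE), added after the data had been seen, covered 17 member transcripts. Of the 19652 transcripts tested, 0.0916% passed, and 0 of the 17 did. The p16Ink4a transcript Cdkn2a-201 did not pass (edgeR, Log2FC of its share 0.31, adjusted p = 0.77). The error of dividing shared reads between transcripts is not part of either test.

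**Figure D4:**
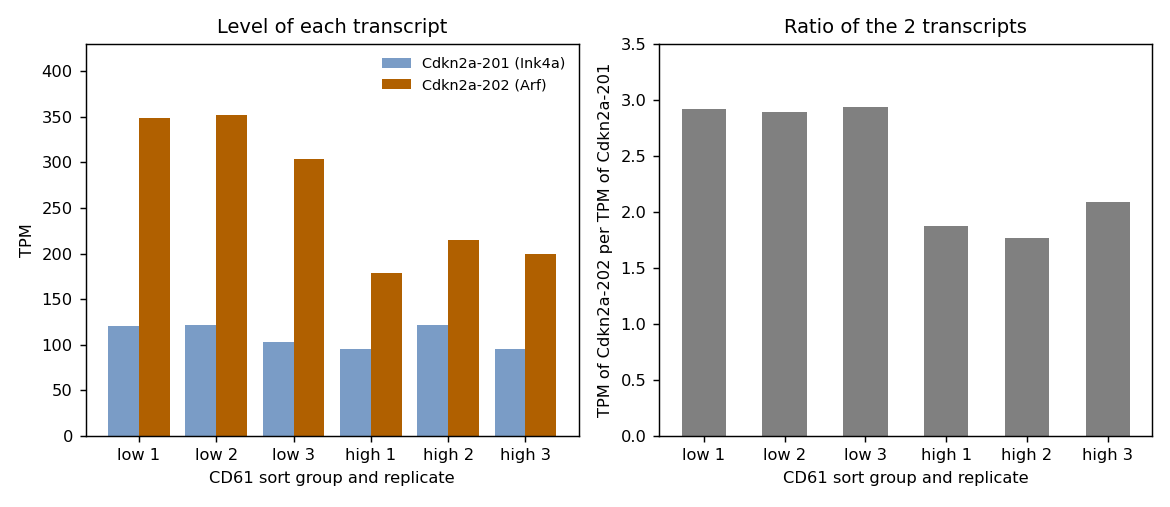
Left, TPM (y axis) of Cdkn2a-201 (p16Ink4a, marked Ink4a) and Cdkn2a-202 (p19Arf, marked Arf) in each sorted library (x axis); right, the ratio of the 2 in each library. The ratio is 2.89 to 2.94 in CD61 low and 1.77 to 2.09 in CD61 high cells.

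Trp53 was spread over several transcripts, of which Trp53-203 held 63.8% of the TPM in CD61 low and 74.0% in CD61 high cells. Trp53-203 had a Log2FC of -0.66 ± 0.08 (adjusted p = 0.0014) and Trp53-202 one of -1.26 ± 0.13 (adjusted p = 9.3e-04), and the share of Trp53-202 did not pass (adjusted p = 0.72). For Cdkn1a the main transcript Cdkn1a-201 was at 170 TPM in CD61 low and 223 TPM in CD61 high cells on average, and Cdkn1a-205 at 38.2 and 66.8 TPM. In Ccnd1, the short retained-intron transcript Ccnd1-202 took 26.1% of the TPM in CD61 low from 23, 0 and 55 reads. The gene sum of Ccnd1 in TPM (24.3, 19.7 and 37.3 in CD61 low) therefore spread more than its sum in counts.

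By TPM the order in CD61 low cells was Cdkn2a at 450 ± 37.0, Trp53 at 299 ± 13.4, Cdkn1a at 213 ± 16.5, Ccnd3 at 156 ± 6.65, Cdkn1b at 80.9 ± 6.86 and Mdm2 at 52.6 ± 0.881 (SD, n = 3), with Cdkn2b, Ccnd1 and Ccnd2 below. In CD61 high cells Cdkn2a at 302 ± 32.2 and Cdkn1a at 294 ± 5.36 overlapped at the top, followed by Ccnd3 at 186 ± 2.58 and Trp53 at 134 ± 3.63. Among the members with reads, the lowest were Cdkn2b at 14.1 ± 0.861 and Ccnd2 at 4.01 ± 0.935. Among the D cyclins Ccnd3 had the highest TPM in both groups. In the differentiation table, per kb of gene length, Ccnd1 was above Ccnd3 on every day, and the gene lengths used there are those of the table and not of the transcripts present.

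Genes around the members were taken from lists drawn up for the pathway, and all listed genes were counted. Of 17 partners of the brake (cyclins, CDKs, other INK4 genes, the retinoblastoma family), 6 rose and 5 fell at day 14 versus day 1, with a median Log2FC of -0.08. Over all genes 32.6% rose and 36.0% fell in that comparison, and 19.4% rose and 16.0% fell in the sort. Rb1, the retinoblastoma gene, rose (Log2FC 1.82 ± 0.06, from 17.8 and 20.5 to 71.2 and 69.4 CPM). Cdk6, a partner of the D cyclins, fell (Log2FC -1.76 ± 0.09, from 32.9 and 33.8 to 9.5 and 8.76 CPM). Skp2, which marks p27 for destruction, fell (Log2FC -0.76 ± 0.05), and Cdkn2d, the INK4 gene for p19Ink4d, rose (Log2FC 0.59 ± 0.06). In the sort 5 of these 17 rose and 1 fell: Ccne1, the cyclin that drives entry into S phase, was lower in CD61 high cells (Log2FC -1.18 ± 0.15, adjusted p = 9.2e-05), and Cdkn2d (Log2FC 0.88 ± 0.09), Ccna2 (Log2FC 0.76 ± 0.08) and Ccnb2 (Log2FC 0.52 ± 0.10) were higher.

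Genes of DNA replication and mitosis did not move one way. Of 23, 8 rose and 9 fell at day 14 versus day 1 (median Log2FC 0.01), beside 32.6% and 36.0% of all genes. Mki67, the gene of the Ki-67 proliferation antigen, was at 299 and 267 CPM on day 1 and at 319 and 279 CPM on day 14 (Log2FC 0.08 ± 0.05, adjusted p = 0.15). Plk1 (Log2FC -1.02 ± 0.05), Tyms (Log2FC -1.0 ± 0.05) and E2f3 (Log2FC -0.77 ± 0.06) fell, and E2f1 rose (Log2FC 0.77 ± 0.04). In the sort 8 rose and 6 fell (median Log2FC -0.03), beside 19.4% and 16.0% of all genes, with Foxm1 (Log2FC 0.81 ± 0.09), Rrm2 (Log2FC 0.72 ± 0.08) and Plk1 (Log2FC 0.58 ± 0.10) higher in CD61 high cells and E2f3 lower (Log2FC -0.82 ± 0.10).

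**Figure D5:**
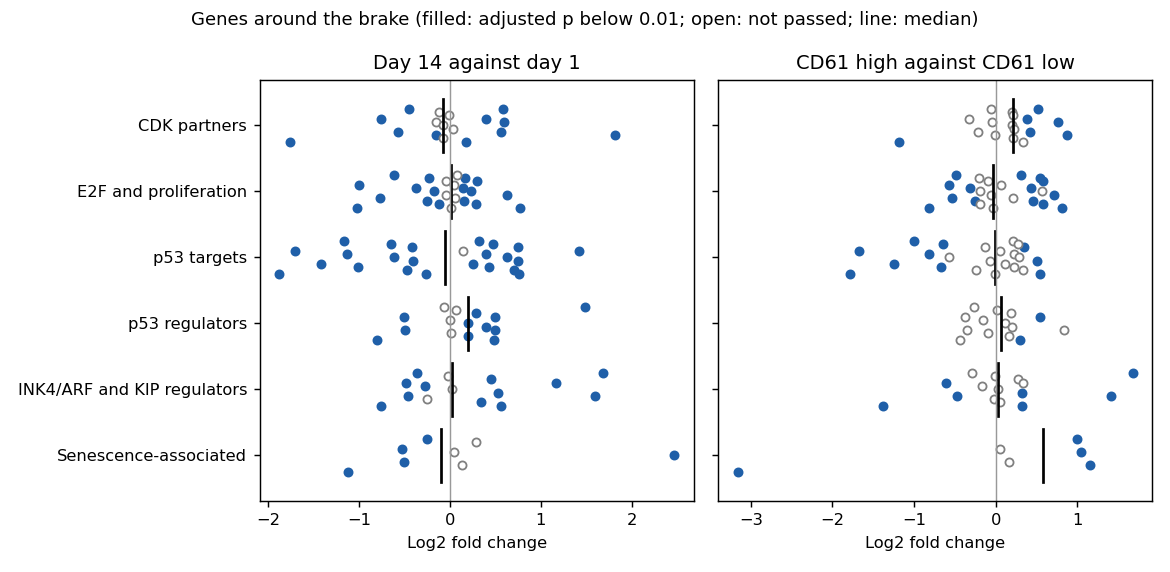
Log2 fold changes (x axes) of the tested genes of 6 lists around the brake for day 14 versus day 1 (left) and CD61 high versus CD61 low (right); filled points have an adjusted p below 0.01, open points do not, the black lines are medians and the height of a point within its row carries no value. The p53 targets spread to both sides of 0 on the left (11 rose and 12 fell), and on the right the largest changes among them are below 0.

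Targets of p53 other than Cdkn1a moved both ways. Of 25 listed, 24 were tested in the time course, and 11 rose and 12 fell at day 14 versus day 1 (median Log2FC -0.06), beside 32.6% and 36.0% of all genes. By step, 6 rose and 9 fell to day 7 (24.5% and 32.0% of all genes), 9 rose and 5 fell to day 10 (29.8% and 18.9%), and 7 rose and 11 fell to day 14 (22.9% and 30.0%). With TMM scaling 8 rose and 9 fell to day 7, 9 rose and 5 fell to day 10, and 9 rose and 10 fell to day 14. Pmaip1, the gene of the death factor Noxa, rose (Log2FC 1.42 ± 0.08), whereas Plk2 (Log2FC -1.88 ± 0.08), Zmat3 (Log2FC -1.71 ± 0.08) and the death receptor gene Fas (Log2FC -1.42 ± 0.13) fell. In the sort 23 were tested, 3 rose and 7 fell (median Log2FC -0.01), beside 19.4% and 16.0% of all genes. Lower in CD61 high cells were Gadd45a (Log2FC -1.79 ± 0.11, adjusted p = 8.1e-07), Plk2 (Log2FC -1.67 ± 0.13, adjusted p = 4.1e-06), Zmat3 (Log2FC -1.25 ± 0.31, adjusted p = 0.0077) and Tnfrsf10b (Log2FC -1.0 ± 0.10, adjusted p = 2.2e-05), while Cdkn1a itself was higher. Gadd45a was at 45.6, 52.3 and 40.7 TMM-scaled CPM in CD61 low and at 13.6, 13.3 and 13.2 in CD61 high cells. The filter on low counts kept Eda2r out of the test and so out of these counts. Its values were 4.35, 3.33 and 3.76 in CD61 low and 0.235, 0.173 and 0.176 in CD61 high cells.

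Of 16 regulators of p53, 15 were tested in the time course, where 8 rose and 3 fell at day 14 versus day 1 (median Log2FC 0.20), beside 32.6% and 36.0% of all genes. Hipk2, a kinase that phosphorylates p53, rose most (Log2FC 1.49 ± 0.05), and Trp63 (Log2FC -0.81 ± 0.15) and Trp53bp1 (Log2FC -0.51 ± 0.05) fell. In the sort 14 were tested and 2 rose (19.4% of all genes), Chek2 (Log2FC 0.55 ± 0.10) and Cop1 (Log2FC 0.30 ± 0.07), and with library size alone Cop1 turned below 0. DESeq2 passed 2 higher and 2 lower genes of this list. Trp63, kept out by the filter on low counts, was at 1.72, 1.69 and 1.17 TMM-scaled CPM in CD61 low cells. In CD61 high cells it was at 0.352, 0.345 and 0.

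Among 15 regulators of INK4, ARF, the KIP inhibitors and D cyclin turnover (Skp2, a partner of the brake as well, is counted in both lists), 7 rose and 5 fell at day 14 versus day 1 (median Log2FC 0.02), beside 32.6% and 36.0% of all genes. By step, 5 rose and 5 fell to day 7 (24.5% and 32.0% of all genes), 12 rose and 2 fell to day 10 (29.8% and 18.9%), and 1 rose and 8 fell to day 14 (22.9% and 30.0%). With TMM scaling 8 rose and 2 fell to day 10, and 1 rose and 7 fell to day 14. The largest changes at day 14 versus day 1 were in Foxo1 (Log2FC 1.68 ± 0.05), Tbx2, a T-box repressor of Cdkn2a (Log2FC 1.60 ± 0.06), and Id1 (Log2FC 1.17 ± 0.11). In the sort 4 rose and 3 fell, beside 19.4% and 16.0% of all genes, with Tbx2 (Log2FC 1.68 ± 0.07) and Foxo1 (Log2FC 1.42 ± 0.08) higher and Hmga2 lower (Log2FC -1.38 ± 0.14) in CD61 high cells. Tbx2 was at 26.2, 25.8 and 24.4 TMM-scaled CPM in CD61 low and at 78.1, 83.3 and 84.2 in CD61 high cells.

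Of 11 genes often measured with senescence, 8 were tested in the time course. At day 14 versus day 1, 1 rose and 4 fell, beside 32.6% and 36.0% of all genes. Among those that fell were the chemokine genes Ccl2 (Log2FC -1.12 ± 0.14) and Cxcl1 (Log2FC -0.53 ± 0.15) and the nuclear lamina gene Lmnb1 (Log2FC -0.51 ± 0.04). In the sort 6 were tested, of which 3 rose and 1 fell, beside 19.4% and 16.0% of all genes. Timp1 (Log2FC 1.05 ± 0.08) and Glb1 (Log2FC 1.00 ± 0.07) were among those that rose, and Cxcl1 fell (Log2FC -3.16 ± 0.16). Ccl2 is not in these counts, because the filter on low counts kept it out of the test. It was at 9.81, 10.2 and 8.25 TMM-scaled CPM in CD61 low and at 0.528, 0.864 and 0.176 in CD61 high cells. With library size alone in place of TMM, the counts of genes higher and lower in CD61 high cells were 2 and 6 for the partners of the brake, 2 and 10 for the replication and mitosis genes, 0 and 10 for the p53 targets, 0 and 5 for the p53 regulators, and 2 and 8 for the regulators of INK4, ARF, KIP and D cyclins. Over all 12045 genes tested with that scaling, 1122 were higher and 4807 were lower. Apart from Cop1, no list gene that had passed turned its direction under any scaling run.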

How the data were processed

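Ocy454 libraries from 8 differentiation samples and 6 sorted samples were analysed. The authors mapped the differentiation reads with STAR, counted them with HTSeq and deposited CPM (counts scaled to library total) per gene, with a gene length. Salmon was run by the authors against the GRCm39 transcriptome, and the deposited files hold estimated counts and TPM per transcript. The submitters' processing notes name STAR, HTSeq, Salmon and GRCm39. Of 116747 transcripts, 115556 (99.3% to 99.4% of counts) matched GENCODE M39 and were summed per gene, and 3 list genes under older symbols were matched by ID.

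The members and lists were chosen with earlier results of these data known. Named are the 10 members, in each list at most 4 genes a comparison with the largest changes past an adjusted p of 0.01, and the 2 genes most like each member; Mki67 was chosen after its values were seen, and some genes that this rule names are not reported here. Days were compared with limma 3.58.1 (eBayes, trend) on log2(CPM + 1), for genes above 1 CPM in at least 1 library. The sort was compared with edgeR 4.0.16 (quasi-likelihood) on rounded counts with TMM and at least 5 normalized counts in all 6 libraries. P-values were adjusted by Benjamini-Hochberg over all features tested. CPM values came out as whole reads for 100.000% of values (within 0.01 reads), and edgeR on those reads passed 8723 genes at day 14 versus day 1. DESeq2 1.42.0, other scalings and filters, a replicate block and leaving out each library were alternatives. Replicates of a group differed beyond sampling noise (chi-square per gene of at least 2.35). Methods were run on simulated counts with planted changes of at least 2-fold in genes with high counts and the same replicate spread for all genes. Smaller changes and genes with low counts were not covered. Sequences came from GRCm39 and GENCODE M39. Tools ran in R 4.3.3 and Python 3.11.15.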

Additional observations from a re-analysis of the deposited data

How the results depend on the processing

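Every member that passed kept its direction under the alternatives run. Among values that had not passed, scaling by TMM turned Cdkn1b from day 10 to day 14 (from -0.03 to 0.02) and Mdm2 from day 7 to day 10 (from 0.04 to -0.03), and Cdkn2a-201 went to -0.05 without replicate 2 of CD61 high. The count of members lower at day 10 versus day 7 was 5 and became 3 with no filter on low values, and ranged from 3 to 5 when each library was left out. The count lower at day 14 versus day 10 was 2, became 1 with no filter, and ranged from 1 to 2 with each library left out. The count lower in CD61 high cells was 3, became 5 with library size alone, and ranged from 3 to 5 with each library left out (5 without replicate 3 of CD61 low). DESeq2 gave -0.51 for Cdkn2a-202 and passed it, and leaving out each library gave -0.61 to -0.41. The cause of these shifts was not tested. The sorted groups share their cultures by the study's description, but the labels do not say that the replicate numbers pair samples. The main fit of the sort was therefore unpaired. Deviations of same-numbered libraries correlated at -0.025 to 0.061 in the time course and at -0.321, 0.22 and -0.0614 in the sort. With the replicate number as a block, 7 members were lower at day 7 versus day 1 and 3 in CD61 high cells, as without it, and the calls in the sort went from 4275 to 3578 genes and, for transcripts, from 1705 to 569. At transcript level the block took Cdkn1a-201, Cdkn1b-201, Cdkn2b-201 and Trp53-203 past the threshold to not passing, with Log2FC values of 0.65, 0.75, -0.98 and -0.66. Leaving out 1 library had the same effect on them in 2 to 5 of the 6 cases, and made 602 to 1004 transcripts pass over all genes, against 3768 with DESeq2. Ccnd3 from day 7 to day 10 (Log2FC -0.10) did not pass in limma (adjusted p = 0.075). It passed under TMM scaling with the same 2 replicates a day.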
